A study of Mus musculus with 6 samples.

Results

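The genes described here supply a cell with amino acids and load them onto transfer RNA. The set of 43 genes has 12 enzymes of amino acid synthesis and one-carbon metabolism, 11 amino acid transporters and 20 cytosolic aminoacyl-tRNA synthetases. It was chosen with earlier results of these data known, and its probes were picked by gene symbol, old or current. Probes of 39 of the 43 genes were found, 81 probes of the 45281 on the array, and 38 genes passed the filter on dim signals, among 13524 genes tested in all. No probe was named for Slc7a5, Got1, Mthfd1l or Dars in the annotation used, so these 4 were not analysed here. The probe for Psph, the phosphatase of the last step of serine synthesis, was above background on 1 array and was not tested.

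Splenic CD8+ T cells came from C57BL/6 mice aged 6 weeks, and total RNA was profiled on Illumina mouse bead arrays, 2 per group. Before stimulation the cells received DMSO (the vehicle), 0.5 µM epoxomicin, which inhibits the proteasome, or 1 µM E9, a compound known only by its code name and given as a proteasome activator. All groups were then cultured for 3 days with IL-2 on plate-bound antibodies to CD3 and CD28 at 5 µg/ml. The submitters describe biological duplicates of CD8+CD44+ cells, and nothing in the labels ties an array to an animal or a day of culture, so p-values measure only the spread between these arrays, which may be technical. The doses of epoxomicin and E9 differ, and both compounds were set against the same DMSO arrays.

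Activated T cells grow quickly and need amino acids for protein, for nucleotides and for glutathione. Serine is taken up or made from a glycolytic intermediate by Phgdh, Psat1 and Psph, and its carbon enters folate metabolism through the hydroxymethyltransferases Shmt1 in the cytosol and Shmt2 in mitochondria. When an amino acid runs short, uncharged tRNA activates the kinase GCN2 (Eif2ak4), translation of the transcription factor ATF4 rises, and ATF4 raises transcripts of many of these enzymes, transporters and synthetases. ATF4 with a C/EBP partner binds a composite element, written TGATGNAA below.

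The element is shown for the members whose start region holds it, because it lets the reader see which genes share it. Of the 43 genes, 32 had a RefSeq window of 250 bases before to 50 bases after a gene start (GRCm38.p6), and 10 of the 32 held TGATGNAA on either strand, against 4.51% of the 27025 genes in the table. The 12 matches follow, each turned to read TGATGNAA, with the element in capitals and 6 bases on each side. Of these genes Aars, Gars, Iars and Yars lie on the plus strand and the others on the minus strand. The place is the distance of the leftmost base of the element, on the gene's strand, from the gene start, whose own base counts as 1.
Aars at -112, chr8:111033724-111033743: ctcggcTGATGCAAtgctca
Aars at 10, chr8:111033845-111033864: gcgctcTGATGAAAagtgac
Asns at -23, chr6:7693219-7693238: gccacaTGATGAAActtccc
Gars at -30, chr6:55037965-55037984: ggtgcaTGATGAAAtagcgc
Got1 at -102, chr19:43524694-43524713: cttgtaTGATGCAAccaatg
Iars at 8, chr13:49682131-49682150: tggaggTGATGCAAtactga
Pycr1 at -103, chr11:120643838-120643857: tgtgtaTGATGCAAtgcaca
Slc1a4 at -4, chr11:20332704-20332723: tggagaTGATGCAAcgcagg
Slc7a11 at -66, chr3:50443666-50443685: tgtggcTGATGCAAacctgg
Slc7a11 at -47, chr3:50443647-50443666: gcatgaTGATGCAAattctc
Tars at -15, chr15:11399660-11399679: accagcTGATGCAAcgggac
Yars at 4, chr4:129189900-129189919: ctcagcTGATGCAAcccgac

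Of the 9 genes in this list that were tested, 2 passed the threshold in some comparison, Asns and Iars, and they moved in opposite directions with E9. Among 19 tested members with a window and no match, 6 passed in some comparison. Wars and Aldh1l2, which also passed, had no window. The share of all genes tested that passed in some comparison is not given here, so these counts have no background. Whether passing differed between members with and without the element was not tested. A match of these letters is a description of the window, not of binding.

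Of the 10 members that passed in some comparison, 3 had a window with the element above or with CACGTG, the palindromic E-box, which 8.09% of genes in the table held. Their windows are printed whole from RefSeq in the direction of transcription, with both motifs in capitals.
Slc43a1, chr2:84840073-84840372, plus strand: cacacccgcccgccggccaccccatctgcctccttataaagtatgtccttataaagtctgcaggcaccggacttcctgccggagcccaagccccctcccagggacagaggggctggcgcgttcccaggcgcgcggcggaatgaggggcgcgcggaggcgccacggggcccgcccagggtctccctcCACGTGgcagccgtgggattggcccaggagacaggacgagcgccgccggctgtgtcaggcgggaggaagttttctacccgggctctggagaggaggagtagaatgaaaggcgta
Asns, chr6:7693160-7693459, minus strand: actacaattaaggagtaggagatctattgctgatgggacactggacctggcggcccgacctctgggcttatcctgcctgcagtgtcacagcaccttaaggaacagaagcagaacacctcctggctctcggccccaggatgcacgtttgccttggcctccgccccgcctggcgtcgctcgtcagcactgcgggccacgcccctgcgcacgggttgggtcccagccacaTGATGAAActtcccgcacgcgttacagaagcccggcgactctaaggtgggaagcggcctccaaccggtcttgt
Iars, chr13:49681880-49682179, plus strand: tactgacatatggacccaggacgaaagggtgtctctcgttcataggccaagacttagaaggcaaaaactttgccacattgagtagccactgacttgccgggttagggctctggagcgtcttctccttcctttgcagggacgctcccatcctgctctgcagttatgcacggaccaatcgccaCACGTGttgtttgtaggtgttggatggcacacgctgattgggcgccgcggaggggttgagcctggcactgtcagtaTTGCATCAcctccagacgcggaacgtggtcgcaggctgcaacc
In the Iars window the composite element reads on the other strand, so it appears as TTGCATCA, and an E-box lies upstream of it.

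The intensities are linear and had been quantile-normalized by the authors, which gives every array the same set of values, from 22 to 18026.1. Signals above 34.5 were counted as above background. Of the 38 tested genes, 36 were above it on all 6 arrays, while Pycr1 and Slc38a1 were so on only some of them. Fold changes are on the log2 scale after adding an offset of 50, which shrinks those of dim genes, and are given with the standard error (SE) of the model. A gene rose, fell or changed where its limma p, adjusted over all 13524 genes, was under 0.05. Of the T cell markers, 7 of 10 were tested, and their summed intensity was 12519 and 12871 with DMSO, 14837 and 14661 with epoxomicin and 19208 and 19713 with E9. The CD8 beta chain gene Cd8b1 ran from 4752.9 to 7588.1, whereas the probe for Cd8a, between 36.5 and 48.5, was barely above background. In bulk RNA, fewer cells of a type and less RNA per cell cannot be told apart.

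Of the 38 genes, 1 changed with epoxomicin against DMSO, 6 with E9 against DMSO and 10 differed between the compounds, where 1.26%, 15.1% and 12.6% of all genes tested did. On this offset scale the log2 difference farthest from 0 in any of the 3 comparisons was -0.80, for Slc6a9 between the compounds. It was -1.05 with no background correction and -1.17 with offset 16. With E9 the glutamine-dependent asparagine synthetase Asns, the glycine transporter Slc6a9 and the tryptophanyl-tRNA synthetase Wars rose, while the cytosolic hydroxymethyltransferase Shmt1, the neutral amino acid transporter Slc43a1 and the isoleucyl-tRNA synthetase Iars fell. With epoxomicin Phgdh, which starts serine synthesis, fell. Between the compounds, 7 genes were lower with epoxomicin and 3 were higher.

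**Figure D1:**
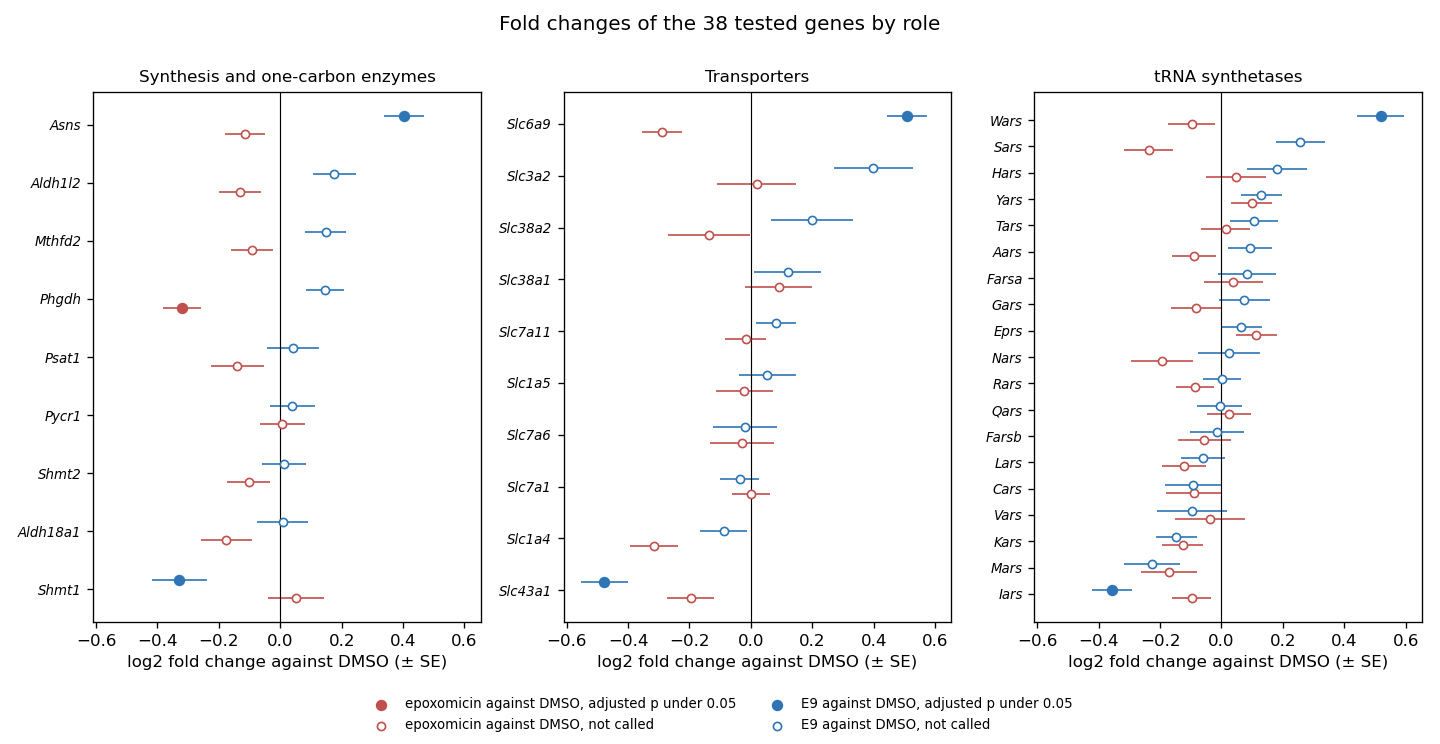
The log2 fold change of each of the 38 tested genes against DMSO (x axis, with bars of ± 1 SE from the model) is drawn by role, epoxomicin in red and E9 in blue, 2 arrays per group. Filled points passed an adjusted p of 0.05: Asns, Slc6a9 and Wars to the right and Shmt1, Slc43a1 and Iars to the left with E9, and Phgdh to the left with epoxomicin.

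Against DMSO, epoxomicin changed 1 of the 38 genes, downward, where 1.26% of all genes tested changed, 0.547% down and 0.71% up. Phgdh measured 575.5 and 568.8 with DMSO, 450.8 and 456.1 with epoxomicin and 645.4 and 625.8 with E9. Both epoxomicin arrays were the lowest and both E9 arrays the highest, with no overlap. Phgdh fell by 0.32 ± 0.062 (SE) with epoxomicin (limma, adjusted p = 0.0433). The call was lost without either DMSO array, without either epoxomicin array and in 5 other alternatives, with log2 values from -0.34 to -0.31 throughout.

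The other 8 tested synthesis and one-carbon genes did not pass with epoxomicin. Psat1, the aminotransferase after Phgdh, measured 2740.2 and 2792.7 with DMSO and 2605.8 and 2414.7 with epoxomicin (log2 fold change -0.14 ± 0.086 (SE), limma adjusted p = 0.629). Aldh18a1, which starts proline synthesis from glutamate, went from 484.6 and 488.7 to 432.3 and 423.6 (log2 fold change -0.18 ± 0.083 (SE), limma adjusted p = 0.479). The arrays of the groups did not overlap for either gene. Of the 9 synthesis genes, 7 were lower with epoxomicin on both arrays, a state that 20.3% of all genes tested showed. So were 3 of the 10 transporters, 9 of the 19 synthetases and 19 of all 38 genes. Both epoxomicin arrays were higher for 3 of the 38, against 21.2% of all genes tested. Shmt1 was higher on both epoxomicin arrays, at 919.0 and 939.9 against 879.2 and 913.7 (log2 fold change 0.051 ± 0.090 (SE), limma adjusted p = 0.919). Dim Pycr1, the last enzyme of proline synthesis, lay between 32.0 and 38.6 on all arrays.

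No transporter passed with epoxomicin, and the 10 tested ones ran from -0.32 to 0.091 with a median of -0.025. The lowest was Slc1a4, a carrier of alanine, serine and cysteine, at 103.8 and 97.5 with DMSO and 70.4 and 81.4 with epoxomicin (log2 fold change -0.32 ± 0.078 (SE), limma adjusted p = 0.11). Slc6a9 was nearer the threshold, at 72.4 and 78.9 with DMSO against 55.6 and 58.8 (log2 fold change -0.29 ± 0.066 (SE), limma adjusted p = 0.0852). For Slc1a4 and Slc6a9 the groups did not overlap. Slc3a2, the heavy chain that carries several of these transporters to the membrane, measured 264.1 and 196.8 with DMSO, so its epoxomicin arrays of 233.2 and 230.0 fell inside that range.

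None of the 19 tested synthetases passed with epoxomicin, and their log2 values ran from -0.24 for the seryl enzyme Sars to 0.11 for the glutamyl-prolyl enzyme Eprs, with a median of -0.086. Of the 19, 13 lay below 0. Over all 38 genes the median was -0.090 and 27 lay below 0, whereas over all genes tested the median was 0.0021, with 49% below 0 and 50.9% above. All 38 had a 95% interval, not adjusted for the number of genes, inside a 1.5-fold change in either direction on this offset scale, as did 98.4% of all genes tested. At an unadjusted p under 0.05, 5 of the 38 passed, where 11.2% of all genes did.

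Markers of T and B cells also differed with epoxomicin, where 0.71% of all genes tested rose and 0.547% fell. Of the 7 tested T cell markers 1 rose, Zap70, which encodes a kinase of the antigen receptor. Of the 10 listed B cell markers, 7 were tested and 5 fell: Igk-C, H2-Ab1, Cd74, Cd79b and H2-Aa. The summed intensity of the 7 was 642.8 and 707 with DMSO, 352.1 and 321.1 with epoxomicin and 582.1 and 696.7 with E9, and the defining markers Ms4a1 and Pax5 lay near background, between 29.5 and 35.8, on every array. The part of these cells in the values for Phgdh and the other members was not tested. In the lists for NK, CD4, myeloid, neutrophil and erythroid cells, 0 markers passed with epoxomicin.

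With E9, 6 of the 38 genes changed, 3 up and 3 down. Over all genes tested 15.1% changed, 7.52% up and 7.61% down, so the share among these genes was near the background. The median of the 38 was 0.048, and that of all genes tested -0.0058. Of the 38, 25 lay above 0, as did 48% of all genes tested. Both E9 arrays lay above both DMSO arrays for 12 of the 38 and below them for 5, against 24.7% and 26.7% of all genes tested. At an unadjusted p under 0.05, 11 of the 38 passed, and 26.5% of all genes. For 34 of the 38 the 95% interval lay within 1.5-fold either way on the offset scale, as it did for 92% of all genes tested. The other 4 were Slc3a2, Slc43a1, Slc6a9 and Wars.

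Among the synthesis enzymes Asns rose with E9. It measured 849.6 and 887.8 with DMSO, 822.6 and 776.4 with epoxomicin and 1161.4 and 1152.6 with E9. The E9 arrays were the highest and stood apart from the other 4. The log2 fold change was 0.40 ± 0.065 (SE; limma, adjusted p = 0.00252). Its further probes also rose, by 0.34 and 0.59, and the call held in each of the 14 alternatives tried. Not all of these are separate, since leaving out either epoxomicin array repeats the fit of the compared groups alone.

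Shmt1, which moves a carbon from serine to folate in the cytosol, measured 879.2 and 913.7 with DMSO, 919.0 and 939.9 with epoxomicin and 783.3 and 640.3 with E9. The E9 arrays were the lowest but lay further apart from each other than those of the other groups. It fell by 0.33 ± 0.090 (SE; limma, adjusted p = 0.0369), a call that 10 of 14 alternatives lost, among them the removal of any array other than E9 replicate 1. Its further probe had a value of -0.30 and did not pass. The value of Shmt1 was -0.19 without E9 replicate 2 and -0.47 without E9 replicate 1. Its mitochondrial counterpart Shmt2 measured 500.1 and 547.2 with DMSO and 545.7 and 510.9 with E9, and did not pass (log2 fold change 0.013 ± 0.071 (SE), limma adjusted p = 0.949).

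Mthfd2, the mitochondrial folate dehydrogenase of growing cells, measured 1698.2 and 1714.3 with DMSO and 1969.2 and 1818.8 with E9, without overlap (log2 fold change 0.15 ± 0.068 (SE), limma adjusted p = 0.204). Aldh1l2, a mitochondrial formyl-tetrahydrofolate dehydrogenase, was dim, at 39.1 and 45.0 with DMSO and 52.1 and 49.5 with E9 (log2 fold change 0.18 ± 0.069 (SE), limma adjusted p = 0.132). Phgdh was also higher on both E9 arrays without passing (log2 fold change 0.15 ± 0.062 (SE), limma adjusted p = 0.167). Psat1, Aldh18a1 and Pycr1 had log2 values from 0.0087 to 0.042.

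Of the 10 tested transporters, Slc6a9 rose and Slc43a1 fell with E9. Slc6a9, which carries glycine with sodium, reached 118.5 and 118.4 with E9, above all 4 other arrays (log2 fold change 0.51 ± 0.066 (SE), limma adjusted p = 0.000645). Slc43a1, which carries large neutral amino acids, measured 112.6 and 121.3 with DMSO, 98 and 99.5 with epoxomicin and 70.9 and 83.0 with E9. The 3 groups of Slc43a1 did not overlap, with DMSO highest and E9 lowest. Its log2 fold change with E9 was -0.48 ± 0.075 (SE; limma, adjusted p = 0.00222), and its further probe fell as well, by 0.35. Both calls held in each of the 14 alternatives.

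Slc3a2 was higher with E9, at 275.6 and 346.3, than with DMSO, at 264.1 and 196.8, and did not pass (log2 fold change 0.40 ± 0.13 (SE), limma adjusted p = 0.0696). The value of Slc3a2 was 0.59 without DMSO replicate 1 and 0.55 without E9 replicate 1, which passed, and 0.21 without DMSO replicate 2 and 0.25 without E9 replicate 2, which did not. It also passed with no background correction and with trended robust eBayes. The glutamine and neutral amino acid carrier Slc38a2 measured 991.5 and 765.3 with DMSO and 915.8 and 1102.3 with E9, which overlapped. A further bright probe of Slc38a2 measured 637.5 and 624.4 with DMSO and 754.3 and 678.6 with E9, without overlap. That probe did not pass (log2 fold change 0.17 ± 0.077 (SE), limma adjusted p = 0.194). Slc7a6, Slc1a5, Slc7a1 and Slc38a1, carriers of cationic or neutral amino acids, ran from -0.037 to 0.12 with E9. Slc7a11, the cystine-glutamate exchanger, was dim throughout, at 35.4 to 42.8. Slc1a4 was at 98 and 88.3 with E9 (log2 fold change -0.089 ± 0.078 (SE), limma adjusted p = 0.554).

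Of the 19 tested synthetases, Wars rose and Iars fell with E9. Wars, a synthetase also known as an interferon-induced gene, measured 466.7 and 505.1 with DMSO, 445.4 and 459.6 with epoxomicin and 750.9 and 665.0 with E9. The E9 arrays stood above the rest without overlap (log2 fold change 0.52 ± 0.077 (SE), limma adjusted p = 0.00152). Of its 3 further probes, 1 also rose, by 0.48, and the others had values of 0.26 and 0.098. With the mean of all probes the value of Wars was 0.34, which passed.

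Iars measured 1315.8 and 1294.2 with DMSO, 1209.6 and 1226.8 with epoxomicin and 981.1 and 1046.0 with E9. Its groups did not overlap, with DMSO highest and E9 lowest (log2 fold change -0.36 ± 0.065 (SE) with E9, limma adjusted p = 0.00468). A further bright probe of Iars fell by 0.38 with E9. The remaining pair of Iars probes was dim, between 36.7 and 51.1, with values of -0.065 and 0.048, and with the mean of all its probes the gene did not pass (log2 fold change -0.19, adjusted p = 0.0524).

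The other 17 synthetases did not pass with E9 and ran from -0.23 for the methionyl enzyme Mars to 0.26 for Sars, around a median of 0.024 for the 19. Mars was at -0.37 without DMSO replicate 1, which passed, and at -0.088 without DMSO replicate 2, which did not. Sars was at 322.4 and 316.8 with DMSO, 288.9 and 247.0 with epoxomicin and 400.6 and 373.8 with E9, with no overlap between groups. Its E9 difference was 0.26 ± 0.080 (SE; limma, adjusted p = 0.0627), and its further probe rose, by 0.31. With the mean of all its probes Sars passed, at 0.28. The glycyl enzyme Gars measured 5053.4 and 5519.7 with DMSO and 5968.1 and 5183.2 with E9, and the leucyl enzyme Lars 2422.6 and 2359.5 against 2390.7 and 2196.8; both pairs overlapped. The arginyl enzyme Rars and the glutaminyl enzyme Qars had log2 values of 0.00048 and -0.0058.

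T cell markers moved with E9 beside these genes: 5 of the 7 tested rose and 0 fell, with a median of 0.60. Of the B cell markers 2 of 7 fell, Cd79b and H2-Ab1, and of the 7 log2 values 3 lay above 0 and 4 below. Igk-C was higher on both E9 arrays without passing (log2 fold change 0.46 ± 0.16 (SE), limma adjusted p = 0.0862). Of the CD4 list 1 of 3 fell and of the neutrophil list 1 of 3 rose. Over all genes tested 7.52% rose and 7.61% fell with E9. The part of any shift in cell types in the E9 values was not tested.

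**Figure D2:**
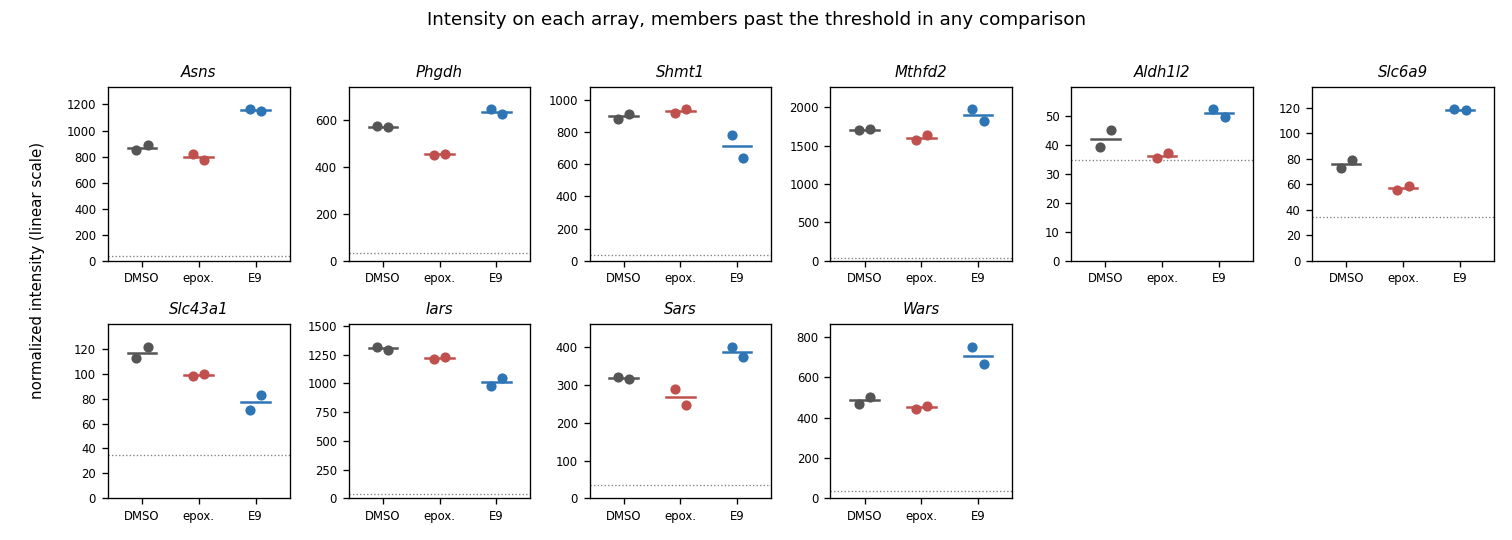
Deposited intensity on each array (y axis, linear, from 0) is drawn for the 10 members that passed in any comparison; points are arrays, lines are group means of 2 arrays and the dotted line is the background limit of 34.5. Asns, Slc6a9 and Wars stand highest with E9, Shmt1, Slc43a1 and Iars lowest with E9, and Phgdh lowest with epoxomicin.

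Set directly against each other, at their different doses, the compounds differed in 10 of the 38 genes. Over all genes tested 12.6% differed. Lower with epoxomicin than with E9 were 7 of the 38, where 6.62% of all genes tested were lower, and 3 were higher, where 6% of all genes were. Both epoxomicin arrays lay below both E9 arrays for 18 of the 38, against 23% of all genes tested, and above them for 4, against 27%. Of the 38, 10 lay above 0, as did 52.9% of all genes tested. At an unadjusted p under 0.05, 14 of the 38 passed, and 23.3% of all genes. The median of the 38 was -0.089, against 0.0080 for all genes tested. The count was 5 without epoxomicin replicate 1 and 5 without epoxomicin replicate 2, and those 5 were Asns, Phgdh, Slc6a9, Sars and Wars, which passed in each of the 14 alternatives. Of the other calls, those of Aldh1l2, Mthfd2, Slc43a1 and Iars were also lost without E9 replicate 1. That of Shmt1 was lost without E9 replicate 2. Those of Mthfd2 and Slc43a1 were lost in the fit of the compared groups alone, which leaving out either DMSO array repeats. Markers differed as well: 4 of 7 T cell and 3 of 7 B cell markers were lower with epoxomicin than with E9, as was the neutrophil marker S100a8, and the T cell marker Zap70 and the regulatory T cell gene Foxp3 were higher. Their part in these differences was not tested.

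Of the 9 synthesis enzymes 4 were lower with epoxomicin than with E9. Asns differed by -0.52 ± 0.065 (SE; limma, adjusted p = 0.000604) and its further probes by -0.53 and -0.38, both of which passed. Phgdh differed by -0.46 ± 0.062 (SE; limma, adjusted p = 0.000862). Aldh1l2 differed by -0.31 ± 0.069 (SE; limma, adjusted p = 0.0175), with a signal close to background, at 35.3 and 37.0 with epoxomicin. The dimmer further probe of Aldh1l2 had a value of -0.069 and did not pass. The value of Aldh1l2 was -0.61 with offset 16 and -0.49 with no background correction, which passed, and -0.19 with the mean of its probes, which did not. Mthfd2 differed by -0.24 ± 0.068 (SE; limma, adjusted p = 0.0481), a call that 11 of 14 alternatives lost, and its further probe passed at -0.27. Shmt1 went the other way, 0.38 ± 0.090 (SE; limma, adjusted p = 0.0224), and its further probe, at 0.35, did not pass. Without E9 replicate 2 the value of Shmt1 was 0.24. Psat1 and Aldh18a1, both at -0.18, passed without E9 replicate 1, at -0.30 and -0.31, and were at -0.064 and -0.062 without E9 replicate 2.

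For Slc6a9 the epoxomicin arrays were lowest, the DMSO arrays in the middle and the E9 arrays highest. The difference between the compounds was -0.80 ± 0.066 (SE; limma, adjusted p = 3.86e-05). Slc43a1 was higher with epoxomicin than with E9 (0.28 ± 0.075 (SE), limma adjusted p = 0.039), a call lost in 6 of 14 alternatives. The further probe of Slc43a1, at 0.25, did not pass. Slc3a2 at -0.38 ± 0.13 (SE; limma, adjusted p = 0.0939) and Slc38a2 at -0.34 ± 0.13 (SE; limma, adjusted p = 0.157) did not pass. Slc3a2 was at -0.53 without E9 replicate 1 and at -0.23 without E9 replicate 2. It passed in the fit of the compared groups alone, which leaving out either DMSO array repeats. A further bright probe of Slc38a2 did pass, at -0.44, with 494.6 and 548.2 for epoxomicin and 754.3 and 678.6 for E9.

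Among synthetases Wars differed by -0.62 ± 0.077 (SE; limma, adjusted p = 0.000604) and Sars by -0.49 ± 0.080 (SE; limma, adjusted p = 0.00309). The further probes of Wars had values from -0.42 to -0.25, and 2 of the 3 passed. The further probe of Sars passed at -0.37. Iars was higher with epoxomicin (0.26 ± 0.065 (SE), limma adjusted p = 0.0275), but none of its 3 further probes passed and 8 of 14 alternatives lost the call. The other 16 synthetases ran from -0.22 for the asparaginyl enzyme Nars to 0.058 for the valyl enzyme Vars. Nars was at -0.37 without E9 replicate 1, which passed, and at -0.060 without E9 replicate 2, which did not. With the mean of all probes Wars was at -0.41 and passed, and Iars was at 0.11 and did not.

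**Figure D3:**
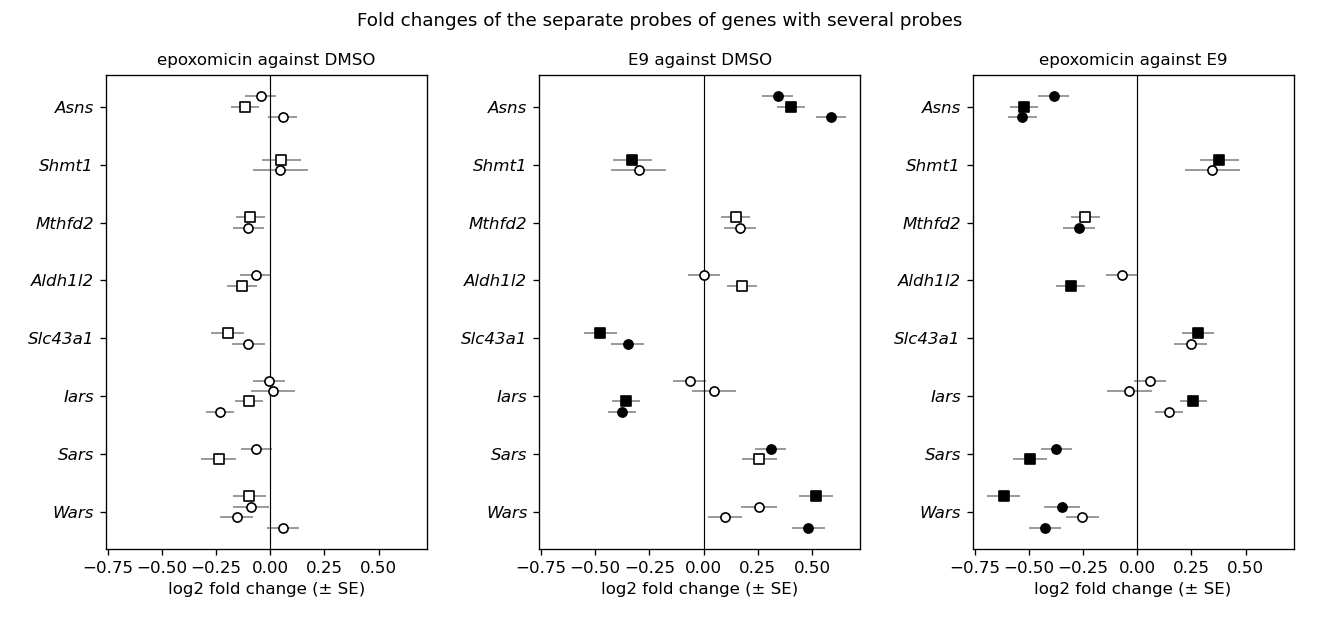
The log2 fold change of every probe above background (x axis, with bars of ± 1 SE) is drawn for the 8 called genes that had several such probes; squares are the brightest probe of a gene, circles its further probes, and filled symbols passed when p was adjusted over all 20349 probes. The probes of Asns lie together, while those of Iars and Wars spread out; the brightest Mthfd2 probe misses the threshold here for the compounds (adjusted p = 0.0512).

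In all, 17 calls were made over the 3 comparisons, and 13 of them were of genes with further probes. In 8 of these a further probe passed the same way, and in 0 did one pass the opposite way.

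A list of 18 regulators of the amino acid response, chosen with earlier results of these data known, was set beside the members. Of the 18, 4 fell with epoxomicin, where 0.547% of all genes tested fell, and 8 rose with E9, where 7.52% rose. Between the compounds 11 were lower with epoxomicin, where 6.62% of all genes were. The list medians were -0.15, 0.19 and -0.42 for the 3 comparisons, against 0.0021, -0.0058 and 0.0080 for all genes tested. Atf4 itself measured 3243.4 and 3259.2 with DMSO, 2615.6 and 2855.3 with epoxomicin and 3367.8 and 3141.3 with E9. It did not pass against DMSO with epoxomicin (log2 fold change -0.25 ± 0.071 (SE), limma adjusted p = 0.178) or with E9 (0.00057 ± 0.071 (SE), limma adjusted p = 0.998), and ATF4 is controlled largely in translation, which arrays do not measure.

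Trib3, a pseudokinase induced by ATF4, measured 145.8 and 171 with DMSO, 96.5 and 80.1 with epoxomicin and 514.5 and 482.7 with E9. Its log2 fold change was -0.69 ± 0.092 (SE; limma, adjusted p = 0.00966) with epoxomicin and 1.51 ± 0.092 (SE; limma, adjusted p = 6.12e-06) with E9. Ddit3, which encodes the stress factor CHOP, rose with E9 (1.38 ± 0.073 (SE), limma adjusted p = 2.66e-06), as did Cebpb (0.96 ± 0.063 (SE), limma adjusted p = 9.9e-06), a C/EBP partner. Ddit4, an inhibitor of mTORC1, fell by 0.62 with epoxomicin and rose by 0.62 with E9. Chac1, which degrades glutathione, and Eif4ebp1, a translation repressor and ATF4 target, were the others that fell with epoxomicin, by 0.81 and 0.49. The kinase gene Eif2ak4 was near background, at 31.9 to 38.8 on all arrays.

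**Figure D4:**
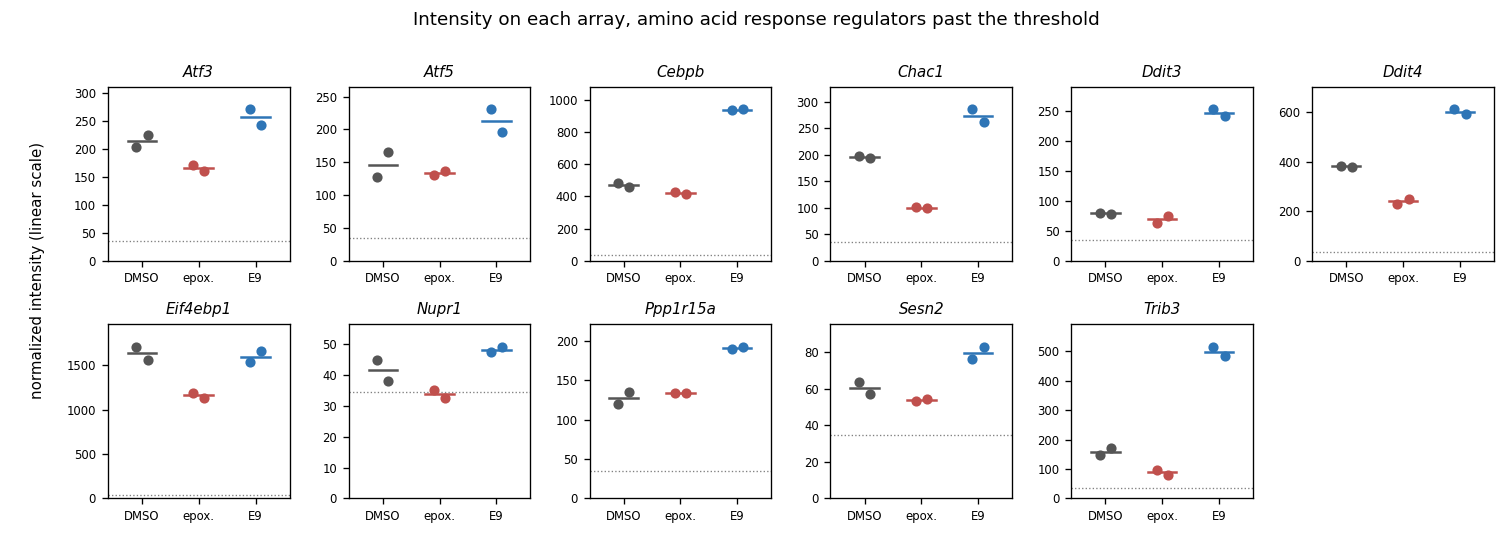
Deposited intensity on each array (y axis, linear, from 0) is drawn for the 11 amino acid response regulators that passed in any comparison, with lines at the group means of 2 arrays and a dotted line at the background limit of 34.5. Trib3, Ddit3 and Cebpb stand highest with E9, and Chac1, Ddit4 and Eif4ebp1 lowest with epoxomicin.

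With E9, 7.61% of all genes tested fell and 7.52% rose. Of 21 tested enzymes of amino acid metabolism outside the 43, 4 fell and 0 rose: Oat, ornithine aminotransferase (-0.56), Cth, which makes cysteine (-0.30), Prodh, proline dehydrogenase (-0.28), and Mtap, of methionine salvage (-0.24). Of 14 tested folate genes 2 fell and 0 rose, the thymidylate synthase gene Tyms (-0.44) and the cytosolic trifunctional enzyme Mthfd1 (-0.32). With epoxomicin 0 genes of either list passed. Between the compounds, Gpt2 (-0.38) and Ass1 (-0.53), enzymes of alanine and arginine synthesis, were lower with epoxomicin, and Oat, Bcat1 and Mtap were higher, as was the folate carrier Slc19a1 (0.32).

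Of 16 tested transporters outside the 43, 2 rose and 3 fell with E9, where 7.52% of all genes tested rose and 7.61% fell. With epoxomicin 0 of these transporters passed. Slc7a3, a carrier of cationic amino acids, measured 97.4 and 115.9 with DMSO, 88 and 112.7 with epoxomicin and 247.5 and 218.9 with E9 (log2 fold change 0.97 ± 0.11 (SE) with E9, limma adjusted p = 0.000248). Slc16a10, a carrier of aromatic amino acids, went from 74.2 and 70.1 with DMSO to 119.1 and 127.3 with E9 (log2 fold change 0.61 ± 0.066 (SE), limma adjusted p = 0.000219). Both stood above the other 4 arrays with E9. The taurine carrier Slc6a6 (-0.37) and the mitochondrial ornithine carrier Slc25a15 (-0.33) fell.

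Of 18 tested synthetases of mitochondria 1 fell with E9, the cysteinyl enzyme Cars2 (-0.36), where 7.61% of all genes tested fell, and 0 passed with epoxomicin. Between the compounds 1 was higher with epoxomicin, Gatc (0.32), a subunit of the mitochondrial glutamyl-tRNA amidotransferase. Of 4 tested partners of the cytosolic synthetases, 0 passed against DMSO with either compound. The complex subunit Eef1e1 was higher with epoxomicin than with E9 (0.27 ± 0.068 (SE), limma adjusted p = 0.0306).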

How the data were processed

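Total RNA had been labelled with streptavidin-Cy3, per the labels' protocols. The authors deposited linear intensity values. Sorting each column gives the same numbers, so the table had been quantile-normalized, and a change in total RNA cannot be seen in it. How the scanner signal was extracted and its background treated is not given in the sources used here. A second table with 6 columns of per-sample values was not used, since its column names match no sample label. The array annotation gave 35784 of 45281 probes 1 symbol, and 31257 were matched to RefSeq. The background limit, 34.5, was the mode of the intensities (30.7) plus a margin from the SD of the values below it (2.34), for a one-sided probability of 0.05. Intensities were corrected with normexp (offset 50) and log2-transformed. Probes above the limit on at least 2 arrays were kept (20349), with the brightest per gene (13524 genes). limma (lmFit, eBayes) fitted the 3 groups in 1 model, with 3 residual and 6.32 prior degrees of freedom and Benjamini-Hochberg adjustment over all genes; the number of arrays limits the precision. The fit was run on simulated data with independent normal noise. Recovery was required only for shifts of 1 or more on the log2 scale, above every member difference in the reported fit. Alternatives were no background correction, offset 16, no filter or a stricter one, the mean of all probes, trended robust eBayes, a fit of the compared groups alone, the replicate number as a block and leaving out each array. Members that passed are all named, with up to 4 passing genes per further list. The members and lists were chosen with earlier results of these data known. Promoter windows came from RefSeq (GRCm38.p6). R 4.3.3, limma 3.58.1, Python 3.11.15 and matplotlib 3.10.9 were used.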

Additional observations from a re-analysis of the deposited data

How the results depend on the processing

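The count of genes changed with epoxomicin against DMSO was 1, and 0 with no background correction, with offset 16, with the stricter filter, with trended robust eBayes and with the replicate block. Leaving out arrays gave 0 to 1 for epoxomicin against DMSO, 5 to 7 for E9 against DMSO (6 with all arrays) and 5 to 10 for epoxomicin against E9 (10 with all arrays). The other alternatives gave 5 to 7 and 7 to 10 for the latter comparisons, within 1.5 times of the reported counts. With the replicate block the paired counts were 0, 5 and 8. The labels do not say what arrays of equal number share, so the numbers were not taken as pairs. Array pairs of equal number had deviations from their group means that correlated at 0.21, -0.32 and -0.20 across genes. With 2 arrays per group the deviations in a group mirror each other, so these values cannot show or exclude pairing. No called value turned its sign in any alternative. Of 90 gene and comparison pairs called nowhere, 75 of 1254 values turned sign, none of them for a pair beyond 0.135 in size. Leaving out an array left a group with a lone array, assumed to vary like the others. For the group outside a comparison this repeats the fit of the compared groups alone. The tallies of alternatives therefore count that fit more than once. Dim signals limit Pycr1, Slc38a1, Slc7a11, Slc7a1, Aldh1l2, Cars and Yars, whose means over all arrays lay under 50.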

Other observations

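Genes that report amino acids to mTORC1 at the lysosome were looked at as a further list, with 21 of its 22 genes tested. With E9, 2 rose and 1 fell, where 7.52% of all genes tested rose and 7.61% fell. With epoxomicin 0 passed, where 1.26% of all genes did. The arginine sensor gene Castor1, named Gatsl3 here, rose from 51.4 and 50.3 with DMSO to 65.8 and 65.1 with E9 (log2 fold change 0.25 ± 0.062 (SE), limma adjusted p = 0.0217). The leucine sensor gene Sesn2 rose from 63.9 and 57.3 to 76.5 and 82.8 (log2 fold change 0.29 ± 0.069 (SE), limma adjusted p = 0.0197), and it also belongs to the response regulators above. Rragd, a Rag GTPase, measured 70.4 and 71.3 with DMSO, 55 and 53.4 with epoxomicin and 42.4 and 39.3 with E9, and fell with E9 (log2 fold change -0.54 ± 0.063 (SE), limma adjusted p = 0.000354). Between the compounds Fnip1 (0.29) and Rragd (0.26) were higher with epoxomicin, and Sesn2 (-0.40) and Lamtor2 (-0.27) were lower.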
